A study of Mus musculus with 12 samples.

Results

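Foxp3 and 6 further genes of the regulatory T cell signature were followed across 12 arrays of cultured mouse helper T cells. The 7 genes were Foxp3, Ikzf2, Ikzf4, Entpd1, Nt5e, Gpr83 and Itgae, and all non-control probes whose accession mapped to one of them were taken. The 7 genes, of 17178 named on the array, had 14 of its 41174 probes, 4 for Ikzf2, 3 for Ikzf4, 2 each for Entpd1 and Nt5e, and 1 each for Foxp3, Gpr83 and Itgae. All 14 passed the filter on dim probes, as did 32200 of all probes.

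The 4 groups held 3 arrays each. Dgcr8-deficient cells were transfected with miR-29b (the Dgcr8-deficient miR-29b group, KO miR-29b in the plots) or with a control miRNA (KO control). Wild-type cells were transfected with miR-29 inhibitors (WT miR-29 inhibitors) or with control inhibitors (WT control). All mice were C57BL/6 and 7 weeks old, and they are numbered 2, 3 and 4 within each genotype, with both arrays of a number coming from 1 mouse. All cells had been activated for 65 hours with antibodies to CD3 and CD28, kept with IL-2 for 48 hours, given the oligonucleotides by electroporation on days 1 and 4, and collected 24 hours later, on day 5. The Dgcr8 allele, any Cre driver and the way the helper T cells were isolated are not given in the sources used here.

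Regulatory T cells are CD4 T cells that restrain immune responses, and Foxp3 is the transcription factor that defines them. Helios (Ikzf2) and Eos (Ikzf4) are Ikaros family zinc finger proteins that act with Foxp3 in these cells. CD39 (Entpd1) and CD73 (Nt5e) are surface enzymes that act in sequence, CD39 turning extracellular ATP and ADP into AMP and CD73 turning AMP into adenosine, which dampens T cell activation. GPR83 is a G protein-coupled receptor enriched on regulatory T cells, and CD103 (Itgae) is the integrin alpha chain that pairs with beta 7 and binds E-cadherin on epithelium. Activated conventional T cells can also express several of these genes, so no single member except Foxp3 marks the lineage. Dgcr8 is the partner of Drosha in microRNA processing, and loss of microRNAs from T cells in mice is known to impair regulatory T cells.

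The agent given to one group and blocked in another was the miR-29 family. Its mature members are shown because they share the seed, the stretch that pairs with target mRNAs, and differ outside it. Bases 2 to 8, the seed, are in capitals, 5′ to 3′, with sequences from RefSeq on GRCm38.p6. The mimic is labelled miR-29b, and which members the inhibitors address is not given in the sources used here.
mmu-miR-29a-3p: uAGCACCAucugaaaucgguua
mmu-miR-29b-3p: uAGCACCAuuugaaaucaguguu
mmu-miR-29c-3p: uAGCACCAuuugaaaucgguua
Mir29a lies on chromosome 6, Mir29c on chromosome 1, and miR-29b is made from a gene on each of these chromosomes.

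Each level below is a log2 signal minus that of the array's 75th percentile, so a level of 0 equals that percentile. Changes are log2 differences ± SE from one limma fit of all 12 arrays, and adjusted p-values were taken over all 32200 probes with a threshold of 0.05. Levels of different probes were not compared with each other. A value with the mouse as a block, which compares both arrays of the same mouse, is given where it changes a call of a member probe. For the further gene lists the blocked calls with miR-29b are mainly given as counts, with values for some genes.

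The number of probes well above background ranged from 27287 to 31405 over the arrays, and 0 spots were saturated. Dgcr8 lay between -1.25 and -0.15 on the Dgcr8-deficient arrays and between -0.16 and 1.01 on the wild-type arrays, a change of -1.06 ± 0.39 between controls (adjusted p = 0.0955, and 0.00213 with a block for scan day). Whether its probe lies inside the deleted stretch is not known. The 8 helper T cell markers, Cd4 and the Cd3 chains among them, were well above background on all arrays. In multiples of the 75th percentile, their summed level in Dgcr8-deficient cells was 362 to 437 with miR-29b and 269 to 314 with control, without overlap. In the wild type it was 348 to 373 with inhibitors and 309 to 372 with control. The part of this shift in the member changes with miR-29b was not tested. B cell markers stood apart by genotype. Their summed level, in multiples of the 75th percentile, was 4.86 to 10.4 with miR-29b and 4.22 to 9.22 with control in Dgcr8-deficient cells, against 0.461 to 0.587 with inhibitors and 0.351 to 0.506 with control in the wild type. Of the markers, Cd79a, Cd79b, Ms4a1 and Blk rose in Dgcr8-deficient controls, and Pax5 did not pass. The summed level of 5 NK cell markers was 0.270 to 0.654 in Dgcr8-deficient controls and 1.25 to 2.87 in wild-type controls. Of these 5, Klrd1 fell (-2.56 ± 0.53, adjusted p = 0.00799), while 3 others had positive changes that did not pass, and the list median was 0.80. Cd8a and 7 myeloid and dendritic cell markers had overlapping summed ranges in the controls of both genotypes, but Itgax rose by 2.61 ± 0.58 and Adgre1 fell by 2.72 ± 0.50 among the 7. Y-linked markers were nearly silent in Dgcr8-deficient mouse 3 (summed level 0.0173 with miR-29b and 0.0135 with control) and at 7.21 or more on the other arrays, so that mouse was also left out in turn. Of the mice, Dgcr8-deficient 2 and wild-type 2 shared a slide, as did Dgcr8-deficient 4 and wild-type 3.

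Foxp3 separated the genotypes and did not follow either treatment. On the 3 Dgcr8-deficient arrays with miR-29b its level was -3.66, -3.73 and -3.69, and on those with control miRNA -3.72, -3.82 and -3.66. On the wild-type arrays it was -2.10, -2.27 and -1.79 with inhibitors and -2.0, -2.22 and -1.83 with control inhibitors. All 6 Dgcr8-deficient arrays lay below all 6 wild-type arrays, and within each genotype the treated and control arrays overlapped. The probe was nevertheless well above background on all 12 arrays, so Foxp3 signal was reduced and not lost in the Dgcr8-deficient cells.

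Between the controls, Foxp3 fell by 1.72 ± 0.18 on the log2 scale in Dgcr8-deficient cells (3.29-fold lower, limma, adjusted p = 0.000186, n = 3 per group). The difference was -1.72 on the slide shared by mice 2 of both genotypes and -1.44 on the other shared slide. It passed in all 23 alternative analyses, with changes from -1.82 to -1.25 and an adjusted p of at most 0.00647, and it was -1.67 without Dgcr8-deficient mouse 3. These arrays measure mixed cells, so fewer Foxp3-positive cells and less Foxp3 RNA per cell cannot be told apart. The controls also differed in the kind of oligonucleotide, a control miRNA against control inhibitors, and genotype and control type cannot be told apart. The part of the B cell and NK cell markers in this difference was not tested.

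Gpr83 was the other member that fell between the controls, and its change there was the largest of the 14 probes in size. With control oligonucleotides its level was -0.21, -0.96 and -1.33 in Dgcr8-deficient cells and 2.00, 1.52 and 1.66 in wild-type cells. The ranges were far apart, and the change was -2.57 ± 0.47 (5.92-fold lower in Dgcr8-deficient cells, limma, adjusted p = 0.00432). Within the shared slides it was -2.22 and -2.86. It passed in all 23 alternative analyses, with changes from -2.88 to -2.32, an adjusted p of at most 0.0335, and -2.50 without Dgcr8-deficient mouse 3.

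**Figure D1:**
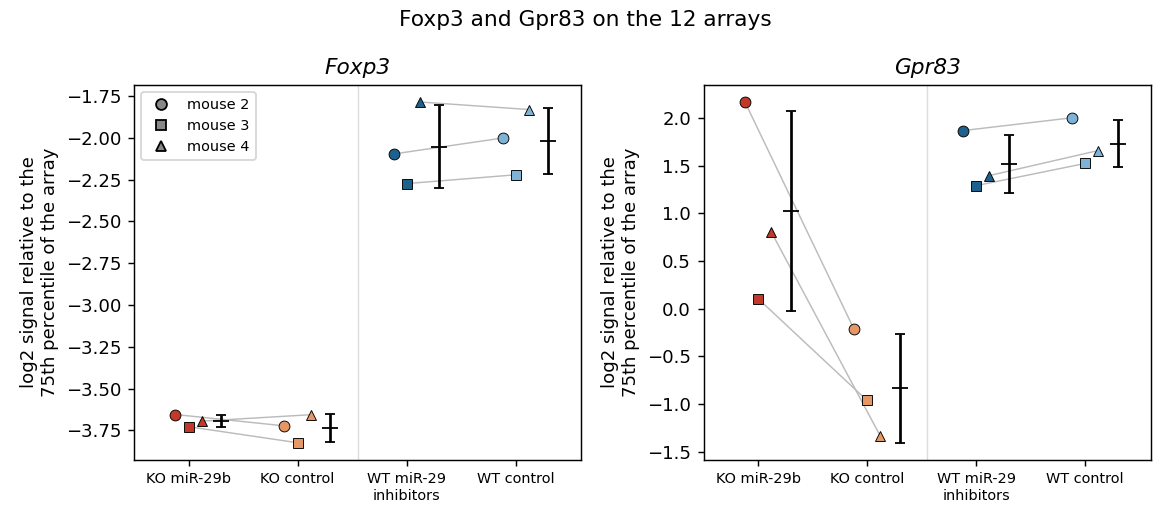
Log2 signal minus that of the array's 75th percentile for Foxp3 and Gpr83, 1 symbol per array with mice 2, 3 and 4 as circles, squares and triangles, lines joining both arrays of a mouse, and bars for the mean ± SD (n = 3). All Dgcr8-deficient (KO) Foxp3 levels lie at -3.66 or below and all wild-type (WT) levels at -2.27 or above, while Gpr83 lies between 0.11 and 2.17 in KO cells with miR-29b, against -1.33 to -0.21 in KO controls.

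Foxp3 and Gpr83 were 2 of the 14 probes called in this comparison, both lower and none higher, a share to be read against the 17.2% of all probes that passed (8.03% higher, 9.16% lower). Groups did not overlap for 4 of the 14, these 2 lower and Ikzf4 and Nt5e with 1 higher probe each, against 32.8% of all probes (14.8% higher, 18% lower). The mouse as a random block left the same 2 calls, against 15.1% of all probes. Blocks for slide and for scan day each called 4 of the 14, against 36.7% and 34.3% of all probes. The slide and scan day fits did not include the mouse, and slides 1 and 3 held 1 genotype each. The other 12 probes did not pass, and the median change of the 14 was 0.37, against -0.03 for all probes. With normexp the median of all probes was -0.24, and relative to it Foxp3 changed by -1.01 and Gpr83 by -2.17.

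The promoters of these 2 genes are shown because they were the members lower in Dgcr8-deficient cells. Each runs from 250 bases before to 50 bases after a RefSeq start on GRCm38.p6, plus strand. Foxp3 is at chrX:7579426-7579725 and Gpr83 at chr9:14859960-14860259. RefSeq gives a further Foxp3 start, which is not printed. Capitals mark matches on either strand to the core letters of 3 factors of T cell activation and identity, NFAT (GGAAA), Runx (TGTGGT) and AP-1 (TGANTCA).
Foxp3: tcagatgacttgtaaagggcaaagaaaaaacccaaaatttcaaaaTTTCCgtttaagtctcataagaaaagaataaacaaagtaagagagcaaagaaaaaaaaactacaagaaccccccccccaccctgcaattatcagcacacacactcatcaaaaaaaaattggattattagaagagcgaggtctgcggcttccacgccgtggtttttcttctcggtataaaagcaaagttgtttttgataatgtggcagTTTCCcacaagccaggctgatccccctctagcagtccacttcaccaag
Gpr83: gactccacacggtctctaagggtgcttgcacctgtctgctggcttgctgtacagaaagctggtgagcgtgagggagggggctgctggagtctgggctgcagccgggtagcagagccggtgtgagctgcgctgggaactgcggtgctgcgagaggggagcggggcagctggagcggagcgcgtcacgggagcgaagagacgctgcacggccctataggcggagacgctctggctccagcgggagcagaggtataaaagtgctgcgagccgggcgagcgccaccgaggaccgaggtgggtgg
The Foxp3 window held 2 matches to the NFAT letters and none to the others, and the Gpr83 window held none. Of 32851 mouse promoter windows of this length, 61.3% held the NFAT letters, 16.8% the Runx letters and 7.81% the AP-1 letters. The windows also differed in base composition, with 40.7% G and C and 6 CG dinucleotides for Foxp3 and 67.0% and 24 for Gpr83.

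Helios (Ikzf2) did not separate the genotypes, and its levels varied more among the Dgcr8-deficient mice than between groups. On its brightest probe the level was -1.47, -0.60 and -0.25 with miR-29b and -1.29, 0.18 and 0.10 with control miRNA in Dgcr8-deficient cells. In wild-type cells it was -0.35, -1.21 and -0.58 with inhibitors and -0.42, -1.32 and 0.02 with control inhibitors. Neighbouring groups overlapped on all 4 Ikzf2 probes. The change between the controls was 0.24 ± 0.49 (limma, adjusted p = 0.845, 95% interval -0.86 to 1.33), and the other 3 probes gave -0.38 to 0.05 without passing. The sign depended on the slide, with -0.87 for mice 2 and 1.42 for Dgcr8-deficient mouse 4 against wild-type mouse 3, and all 4 probes were below 0 between mice 2 and above 0 on the other shared slide. On probe A_52_P431483 the 6 Dgcr8-deficient arrays spread from -6.45 to -3.01, against -4.98 to -4.38 on the 6 wild-type arrays. Dgcr8-deficient mouse 2 had the lowest level of its group with either treatment on all 4 probes. The 3 dimmer probes correlated at 0.905 to 0.946 over the 12 arrays, and the brightest with these at 0.467 to 0.700. In Dgcr8-deficient cells the dimmest, A_52_P333414, was well above background on only 1 miR-29b array and 2 control arrays.

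Eos (Ikzf4) stood higher in Dgcr8-deficient cells on 2 of its 3 probes, without passing. Probe A_51_P445117 was at -1.21, -1.75 and -2.15 with miR-29b and -1.81, -1.81 and -2.57 with control in Dgcr8-deficient cells, against -2.91, -2.80 and -2.79 with inhibitors and -2.70, -2.81 and -2.83 with control in the wild type. All Dgcr8-deficient arrays were above all wild-type arrays. The change between controls was 0.71 ± 0.27 (limma, adjusted p = 0.106). It did not pass with the mouse as a random block (adjusted p = 0.115). It passed with a block for scan day (adjusted p = 0.0287), a fit that called 34.3% of all probes. At 0.97 it also passed without the control array of Dgcr8-deficient mouse 4 (adjusted p = 0.037) or without both arrays of that mouse (adjusted p = 0.0165). Probe A_51_P353247, which correlated with it at 0.907, gave 0.58 ± 0.49 (adjusted p = 0.521), and A_52_P291857 gave -0.02 ± 0.24 and correlated with it at 0.439. The probes of Ikzf4 therefore disagreed, and the exons they lie in are not known.

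The ectoenzymes were higher in Dgcr8-deficient controls on all 4 probes, and none passed. B cell markers were also higher in these controls, and their part in these values was not tested. CD73 (Nt5e, probe A_52_P574668) was at -0.46, -0.42 and 0.00 in Dgcr8-deficient controls and at -1.75, -0.67 and -2.27 in wild-type controls. These ranges did not overlap, but the wild-type mice spread over more than 1 log2 unit and the change of 1.27 ± 0.59 did not pass (adjusted p = 0.193). The other Nt5e probe was near background on several arrays and gave 0.83 ± 0.62, and its sign turned with normexp (-0.23). CD39 (Entpd1) gave 0.71 ± 0.27 on probe A_51_P504337 (limma, adjusted p = 0.105) and 0.50 ± 0.20 on A_52_P21835 (adjusted p = 0.12). With slide as a block both passed (0.54, adjusted p = 0.0332, and 0.44, adjusted p = 0.0432), against 36.7% of all probes. A_52_P21835 also passed blocked by scan day (adjusted p = 0.0220), against 34.3% of all probes. Neither passed with the mouse as a random block (adjusted p = 0.127 and 0.187). Without the control array of Dgcr8-deficient mouse 2, A_51_P504337 gave 0.95 and passed (adjusted p = 0.0448), as it did without both arrays of that mouse (0.0340). CD103 (Itgae) was at -2.12, -0.97 and -0.54 in Dgcr8-deficient controls and -2.51, -2.29 and -1.42 in wild-type controls, overlapping, with a change of 0.86 ± 0.52 (adjusted p = 0.335).

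**Figure D2:**
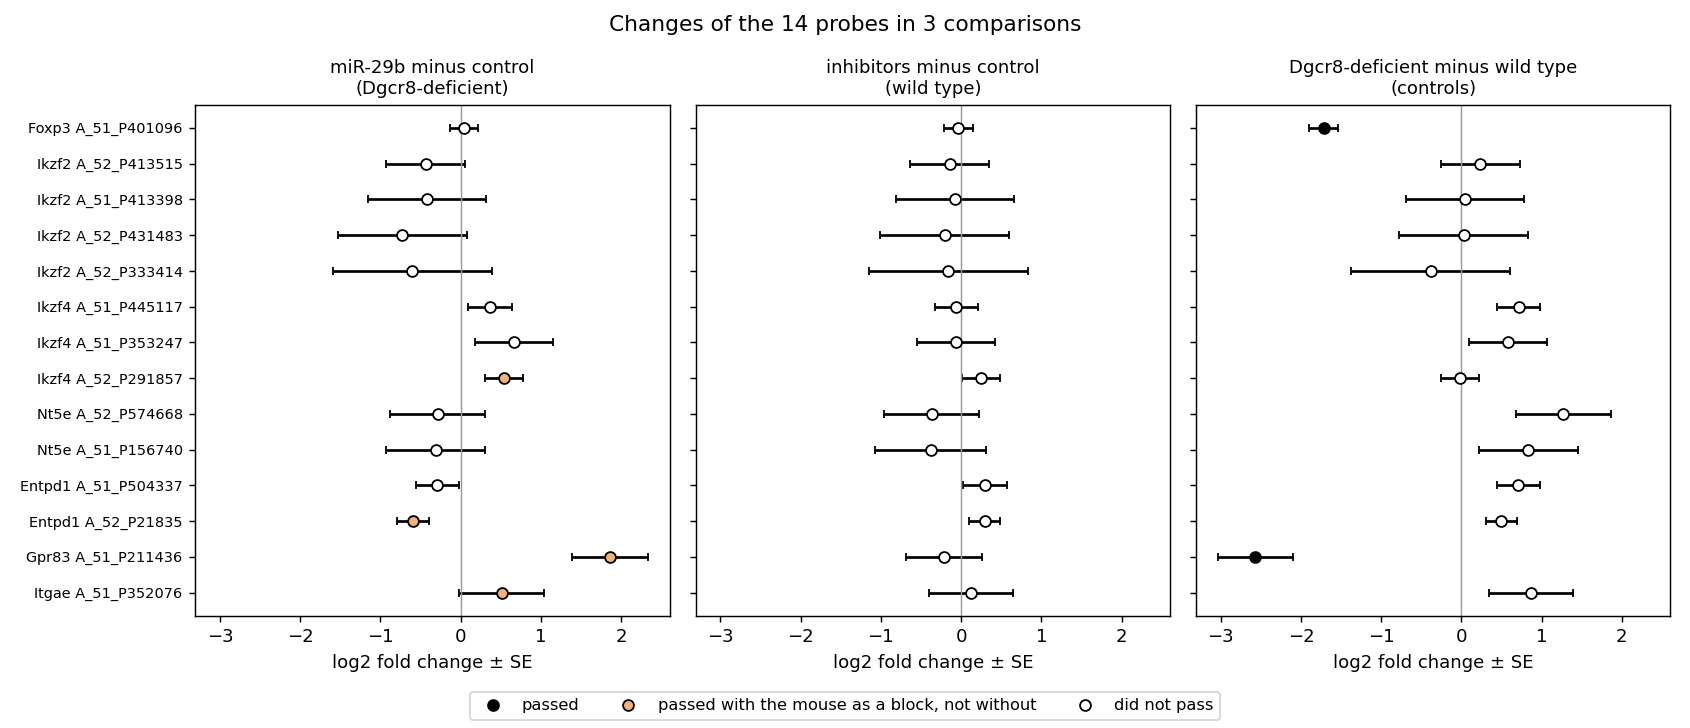
Log2 fold change ± SE of each of the 14 probes (rows) for miR-29b minus control, inhibitors minus control, and Dgcr8-deficient minus wild-type controls, from one fit of 12 arrays, black where it passed, orange where it passed in the fit blocked by mouse alone, and white otherwise. In the genotype panel Foxp3 (-1.72) and Gpr83 (-2.57) pass to the left of 0 while 10 probes lie to the right of it without passing, and no probe passes with inhibitors.

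Added miR-29b was followed within each Dgcr8-deficient mouse, which asks what the microRNA changes where the processing of others is impaired. Gpr83 was higher with it in all 3 mice. Its level was 2.17, 0.11 and 0.81 with miR-29b against -0.21, -0.96 and -1.33 with control miRNA, and the ranges did not overlap. The changes within mice 2, 3 and 4 were 2.38, 1.07 and 2.14. In the fit without a block the change was 1.87 ± 0.47 (3.64-fold, 95% interval 0.82 to 2.91) and did not pass (limma, adjusted p = 0.113). Blocked by mouse, it rose by 1.87 ± 0.25 and passed (adjusted p = 0.0110), as it did with slide (0.0111) and scan day (0.0389) as a block. The 3 Dgcr8-deficient mice each had their own slide, so here and below the mouse and slide blocks are not independent checks. Without the miR-29b array of mouse 2 the change was 1.29 (adjusted p = 0.204), and without that of mouse 3, on which 1458 spots were outliers, it was 2.33 (adjusted p = 0.0536).

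With miR-29b the Gpr83 mean was 1.03 ± 1.05 in Dgcr8-deficient cells, against 1.52 ± 0.31 and 1.73 ± 0.25 in wild-type cells with inhibitors and with control (SD, n = 3 each). The Dgcr8-deficient miR-29b arrays overlapped both wild-type groups. The array of mouse 2, at 2.17, was above all wild-type arrays, and those of mice 3 and 4 were below them. The change of Gpr83 with miR-29b and its fall between the controls share the Dgcr8-deficient control arrays.

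CD39 moved the other way. Entpd1 probe A_52_P21835 was at -2.74, -2.66 and -2.68 with miR-29b against -2.38, -2.01 and -1.92 with control miRNA in Dgcr8-deficient cells, with no overlap. The changes within mice were -0.36, -0.65 and -0.76, and the mean change of -0.59 ± 0.20 did not pass without a block (limma, adjusted p = 0.241). Blocked by mouse, it fell by 0.59 ± 0.12 and passed (adjusted p = 0.0322), as with slide (0.0286), with scan day (0.0354) and with the authors' deposited log2 values (0.0428). The other Entpd1 probe was lower in all 3 mice as well (-0.17, -0.30 and -0.41) and did not pass with or without the block (adjusted p = 0.846, blocked 0.209). The Entpd1 changes with miR-29b and between the controls also share the Dgcr8-deficient control arrays.

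CD103 was higher with miR-29b in each Dgcr8-deficient mouse, and so was Eos on probes A_52_P291857 and A_51_P445117. Itgae was at -1.73, -0.33 and -0.04 with miR-29b against -2.12, -0.97 and -0.54 with control, with changes of 0.39, 0.63 and 0.50. Its groups overlapped and the change of 0.51 ± 0.52 did not pass (limma, adjusted p = 0.879), whereas blocked by mouse it was 0.51 ± 0.11 and passed (adjusted p = 0.0340), but not blocked by slide (0.370) or scan day (0.645). Ikzf4 probe A_52_P291857 was at -3.52, -3.17 and -3.82 with miR-29b against -4.10, -3.72 and -4.30 with control. Its changes of 0.58, 0.56 and 0.48 gave 0.54 ± 0.24 (adjusted p = 0.426), which passed with the mouse (0.0466) or the slide (0.0402) as a block but not with scan day (0.104). Ikzf4 A_51_P445117 changed by 0.60, 0.06 and 0.43 within mice 2, 3 and 4, a mean of 0.36. Probe A_51_P353247 gave 0.67, with -0.07 in mouse 3. Neither of these probes passed in either fit.

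The remaining members showed no call with miR-29b in either fit. Foxp3 changed by 0.07, 0.10 and -0.04 in mice 2, 3 and 4, a mean of 0.04 ± 0.18 (adjusted p = 1.0), with a 95% interval of -0.36 to 0.44, or -0.17 to 0.26 with the mouse as a block. The 4 Ikzf2 probes gave -0.73 to -0.41, lower in all 3 mice on 3 of them, with a smallest blocked adjusted p of 0.0961. Of these 3, A_52_P333414 was well above background on only 1 miR-29b array and 2 control arrays. Nt5e differed between mice on probe A_52_P574668, at 0.77, -1.58 and -0.05, and gave -0.29 ± 0.59.

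In all, 0 of 14 member probes passed with miR-29b without a block, 3 of them at an unadjusted p under 0.05 (Gpr83, Entpd1 A_52_P21835 and Ikzf4 A_52_P291857). Over all probes 0.978% passed (0.357% higher and 0.621% lower, which was 115 and 200 probes, or 51 and 164 with normexp), and the unadjusted p was under 0.05 for 11.2%. In the fit blocked by mouse 3 member probes rose and 1 fell, against 13.3% of all probes (6.35% higher and 6.96% lower). Blocked by slide, 3 of 14 and 10.6% of all probes passed, and blocked by scan day 2 of 14 and 7.9%. Groups did not overlap for 2 of the 14, Gpr83 higher and Entpd1 A_52_P21835 lower, against 13.2% of all probes (7.14% higher, 6.05% lower). In all 3 mice 4 probes were higher and 5 lower, against 31.7% and 22.5% of all probes, and the median of the 14 changes was -0.29, against 0.07 for all probes.

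Inhibitors of miR-29 in wild-type cells left 0 of the 14 probes past the threshold, with or without the block. Of all 32200 probes 0 passed in limma in the fit without a block and in the blocked fit, and 125 (0.388%) were under an unadjusted p of 0.05 in the first. Foxp3 changed by -0.10, -0.05 and 0.05 in mice 2, 3 and 4, a mean of -0.03 ± 0.18 with a 95% interval of -0.43 to 0.36. Gpr83 was at 1.87, 1.29 and 1.40 with inhibitors against 2.00, 1.52 and 1.66 with control, lower in all 3 mice by 0.13 to 0.26, with a mean of -0.21 ± 0.47. Entpd1 was higher in all 3 mice on both probes (0.17, 0.06 and 0.66 on A_51_P504337, and 0.27, 0.11 and 0.49 on A_52_P21835), with means of 0.30 ± 0.27 and 0.29 ± 0.20 that did not pass. Ikzf4 A_52_P291857 was the 1 member probe whose groups did not overlap, at 0.25 ± 0.24, against 2.59% of all probes, and its sign turned with normexp (-0.09). Of the 13 probes measured in all 3 mice, 3 were higher and 3 lower throughout, against 13.3% and 8.92% of all probes. For 1 array, the inhibitor array of mouse 4, the dim Nt5e spot was an outlier and was left out, so that probe rests on 2 inhibitor arrays.

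**Figure D3:**
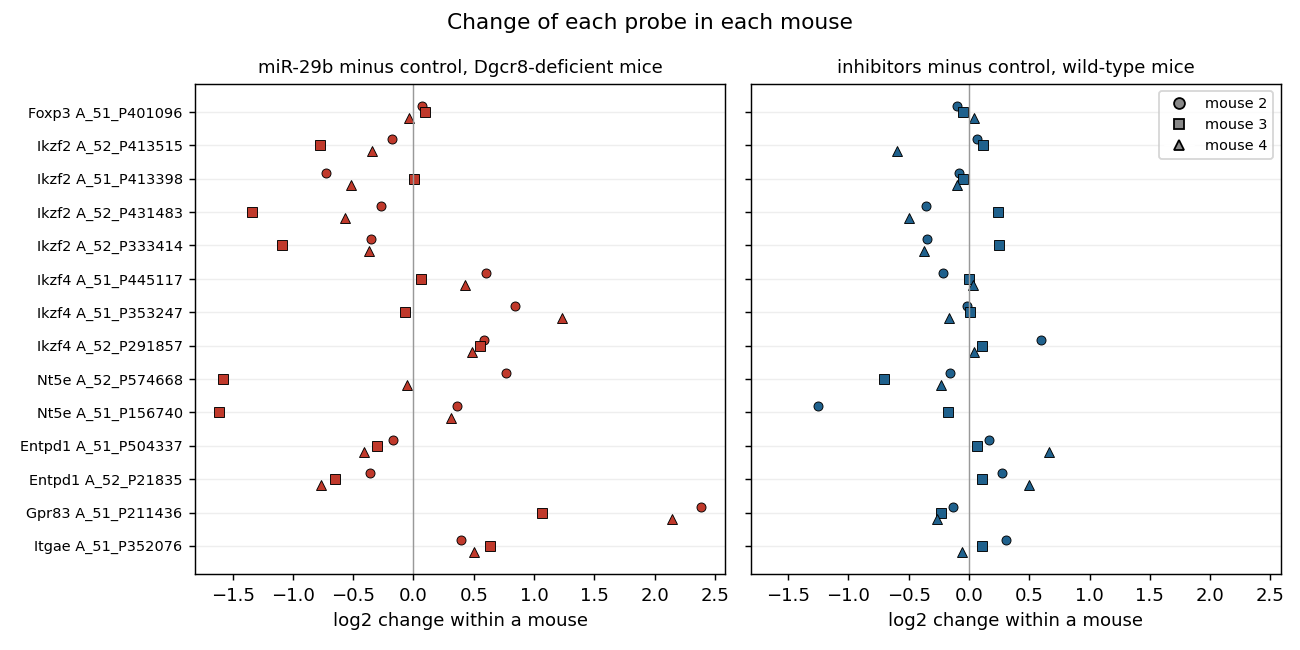
Log2 change of each probe within each mouse for miR-29b minus control (Dgcr8-deficient mice) and inhibitors minus control (wild-type mice), with mice 2, 3 and 4 as circles, squares and triangles. Gpr83 lies at 1.07 to 2.38 with miR-29b and between -0.26 and -0.13 with inhibitors, and the Entpd1 probes lie left of 0 with miR-29b and right of it with inhibitors in every mouse.

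The effects of miR-29b and of the inhibitors were set against each other in the same fit. Gpr83 differed by 2.08 ± 0.67 without passing (limma, adjusted p = 0.525), whereas the fit blocked by mouse called it (2.08 ± 0.35, adjusted p = 0.0473). It did not pass with slide (0.0536) or scan day (0.181) as a block. Entpd1 A_52_P21835 differed by -0.89 ± 0.28 (adjusted p = 0.507, blocked 0.0631) and the other Entpd1 probe by -0.59 ± 0.38. Without a block 0 of the 14 passed, against 0.0404% of all probes, and 2 were under an unadjusted p of 0.05, against 5.47%. Blocked by mouse, 1 of 14 passed, against 2.23%, and 0 of 14 passed blocked by slide or scan day, against 1.74% and 1.3%.

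**Figure D4:**
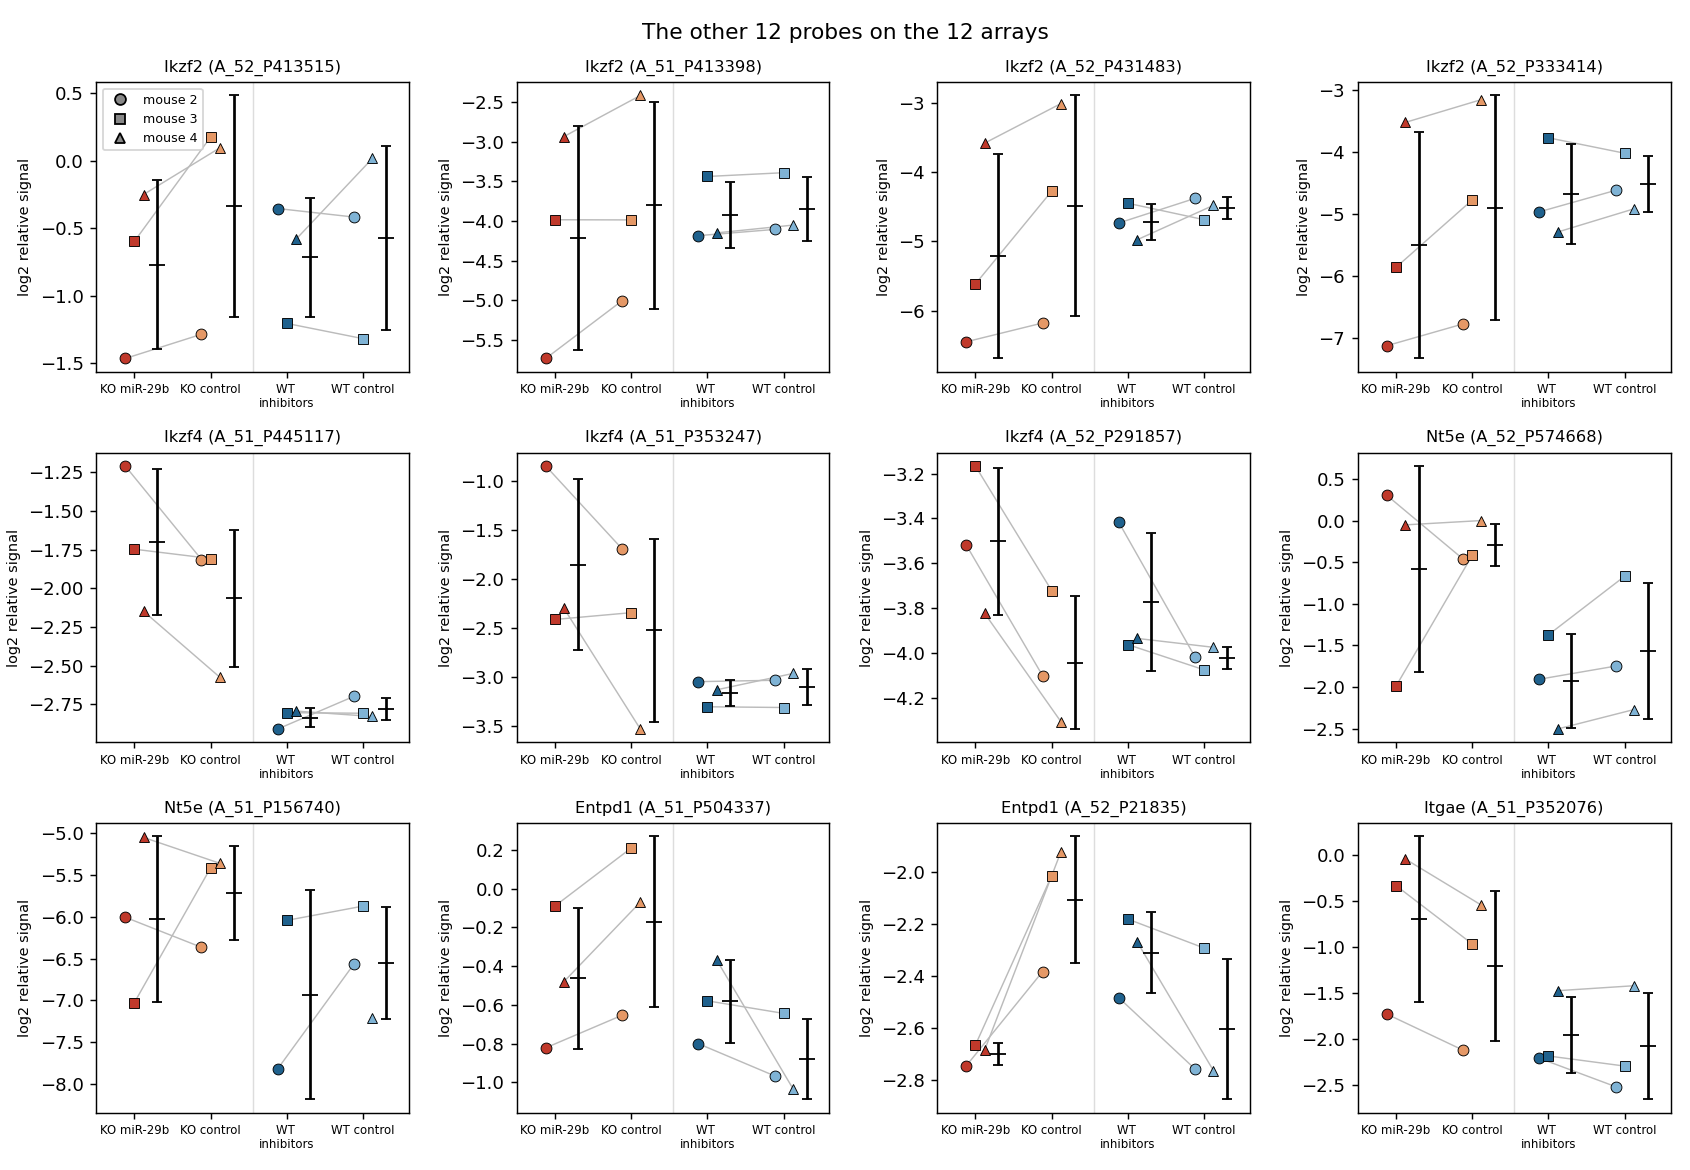
Log2 signal minus that of the array's 75th percentile for the 12 probes of Ikzf2, Ikzf4, Nt5e, Entpd1 and Itgae, 1 panel per probe, with mice 2, 3 and 4 as circles, squares and triangles, lines joining both arrays of a mouse, and bars for the mean ± SD. The Ikzf2 panels show wide spreads among Dgcr8-deficient mice, and Ikzf4 A_51_P445117 lies at -2.57 or above on all Dgcr8-deficient (KO) arrays, against -2.70 or below on all wild-type (WT) arrays.

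The order of the 4 groups differed from gene to gene. Foxp3 ran from Dgcr8-deficient control through Dgcr8-deficient miR-29b and wild-type inhibitors to wild-type control, and the step of 1.64 between the genotypes was the one at which neighbours did not overlap. Gpr83 had the same order, with its gap of 1.87 between Dgcr8-deficient control and Dgcr8-deficient miR-29b, and the 3 groups above overlapped with their neighbours. For Ikzf4 A_51_P445117 the 2 wild-type groups were lowest and separated from Dgcr8-deficient control by 0.71. Ikzf4 A_52_P291857 separated its wild-type control and inhibitor groups by 0.25. On the other 10 probes no neighbours in the order were separated.

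Among members, levels on the brightest probes were compared across the 12 arrays, which share mice, slides and the genotype split, so these correlations describe the arrays. Entpd1 and Gpr83 ran opposite (r = -0.83, and -0.81 after subtracting group means). Foxp3 and Ikzf4 also ran opposite (r = -0.83), which was -0.08 after subtracting group means. Ikzf2 and Itgae varied together within groups (r = 0.80), and Gpr83 and Itgae in opposite directions (-0.79).

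The genes most like each member over the 12 arrays were also found, 3 for each. For Foxp3 they were Mctp1 (r = 0.994), Gnb4 (0.986), a G protein beta subunit, and Cd300lf (0.985), an inhibitory receptor of the CD300 family. After subtracting group means the r of these 3 with Foxp3 was 0.776, 0.338 and 0.620. For the genes of the other members, named next, it was then 0.733 to 0.950. For Gpr83 they were Rhoh (0.967), a small GTPase of blood cells, Dlg3 (0.948), a membrane scaffold protein, and Trim13 (0.945), a ubiquitin ligase. Ikzf4 was followed by Cbr3 (0.981), Ralgds (0.979) and Enah (0.976), and Ikzf2 less closely by Sly (0.885), Pou3f1 (0.879) and Olfr539 (0.840). Nt5e was most like Fbxo45 (0.969), Srek1 (0.951) and Prkaa1 (0.951). Prkaa1 encodes a catalytic subunit of AMP-activated kinase. Entpd1 was most like Rxfp2 (0.899), Spire2 (0.893) and 1700009N14Rik (0.889), and Itgae like Clk1 (0.936), a kinase of splicing factors, Lpar2 (0.931), a lysophosphatidic acid receptor, and Ikzf3 (0.920), which encodes the Ikaros protein Aiolos.

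Factors known to act on Foxp3 transcription were examined as a list of 23, of which 21 were measured. Between the controls 3 rose in Dgcr8-deficient cells, Irf4 (1.86 ± 0.37, limma, adjusted p = 0.00655), Runx3 (1.16 ± 0.25) and Nfatc2 (0.64 ± 0.19). Irf4 is a factor of effector differentiation, Runx3 pairs with Cbfb at the Foxp3 locus, and Nfatc2 is an NFAT protein of T cell receptor signalling. Uhrf1, which maintains DNA methylation through cell division, fell by 1.09 ± 0.20 (adjusted p = 0.00472), and 17 did not pass. The 4 of 21 called compare with 17.2% of all probes, and the list median was 0.12. This list and those below count 1 probe per gene, while the shares beside them are over all probes. In the fit with 1 probe per gene, 3274 of 14705 passed between the controls (1362 higher, 1912 lower). With miR-29b 0 of the 21 passed, and those with the smallest p were Tet2 (-0.81 ± 0.24, adjusted p = 0.171), an enzyme of DNA demethylation, and Stat5a (0.53 ± 0.17, adjusted p = 0.219), which carries the IL-2 signal. Blocked by mouse, 3 of the 21 rose, among them Stat5a (adjusted p = 0.0324). Tet2 (0.0287) and Runx3 (0.0312) were the 2 that fell. Of all probes 6.35% were higher and 6.96% lower in that fit. With inhibitors 0 of 21 passed, led by Tet2 (0.24 ± 0.24) and Irf4 (0.19 ± 0.37).

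Other surface and effector genes of regulatory T cells moved in both directions. Of 24 listed, 21 were measured, and between the controls 6 rose and 2 fell in Dgcr8-deficient cells while 13 did not pass, against 8.03% of all probes higher and 9.16% lower. The list median was 0.86, against -0.03 for all probes. Those that rose were Lag3 (2.46 ± 0.66), Cd83 (1.97 ± 0.50), Fgl2 (1.81 ± 0.20), Il2ra (1.29 ± 0.36), Tnfrsf4 (1.25 ± 0.26) and Tnfrsf18 (0.81 ± 0.24). Il2ra encodes CD25, Tnfrsf4 and Tnfrsf18 encode the costimulatory receptors OX40 and GITR, Lag3 an inhibitory receptor, and Fgl2 a secreted suppressive protein, and activated conventional T cells also express Il2ra, Tnfrsf4, Tnfrsf18 and Lag3. Those that fell were Izumo1r (-2.34 ± 0.37), which encodes the folate receptor family protein FR4, and Icos (-0.69 ± 0.19), a costimulatory receptor. In the fit with the mouse as a block Il2ra (adjusted p = 0.0608) and Icos (0.0791) no longer passed. Cd83 is also expressed by activated B cells, and the part of the B cell markers in these changes was not tested.

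**Figure D5:**
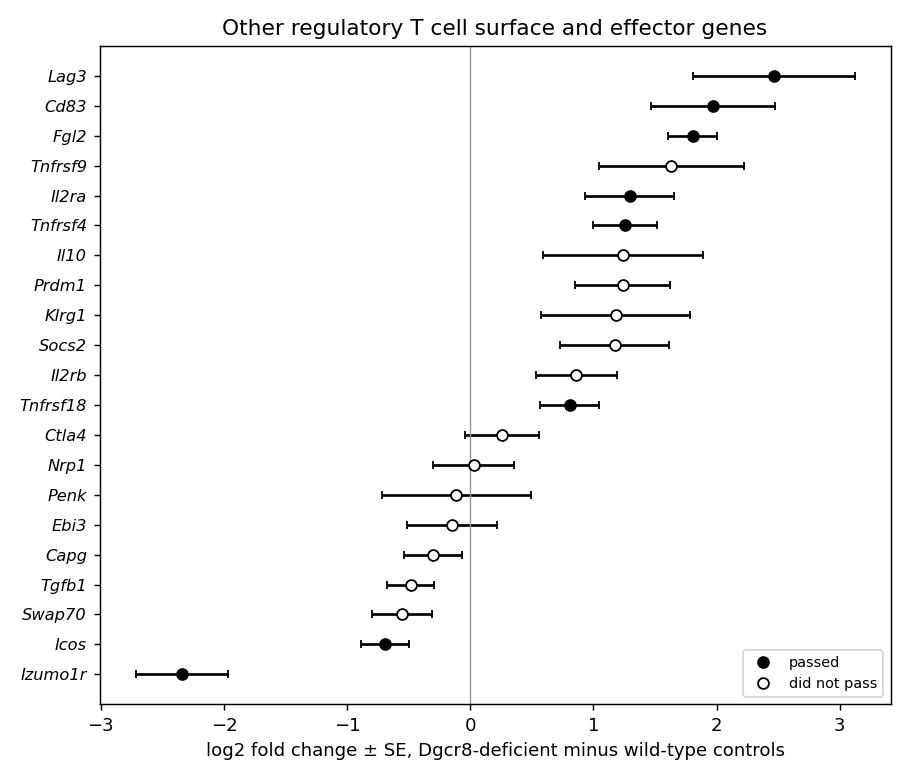
Log2 fold change ± SE between Dgcr8-deficient and wild-type controls (x axis) for the 21 measured genes of the surface and effector list (rows), filled where they passed. Lag3, Cd83, Fgl2, Il2ra, Tnfrsf4 and Tnfrsf18 pass right of 0, and Icos and Izumo1r left of it.

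Fgl2 was the 1 gene of that list called with miR-29b. It fell by 1.84 ± 0.20 on the log2 scale in Dgcr8-deficient cells (limma, adjusted p = 0.00595), and this effect differed from that of the inhibitors by -2.12 ± 0.28 (adjusted p = 0.0488). Its fall with miR-29b and its rise between the controls share the Dgcr8-deficient control arrays. Blocked by mouse, 3 genes of the list rose and 2 fell with miR-29b, against 6.35% and 6.96% of all probes. Those that rose were Izumo1r (1.33, blocked adjusted p = 0.00898), Ebi3 (0.58, 0.0300) and Tgfb1 (0.58, 0.0300). Fgl2 and Nrp1 (-1.30, 0.0436) were the 2 that fell. Izumo1r was lower in Dgcr8-deficient cells between the controls, and both of its changes share the Dgcr8-deficient control arrays. Ebi3, Tgfb1 and Nrp1 did not pass between the controls. With inhibitors none passed, led by Klrg1 (1.14 ± 0.60) and Penk (1.07 ± 0.61).

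Genes usually low in regulatory T cells were listed as the counterpart, and 8 of 9 were measured. Between the controls Dapl1 fell by 3.85 ± 0.91 (limma, adjusted p = 0.0155) and 7 did not pass, against 9.16% of all probes lower. With miR-29b 0 of 8 passed, with the smallest p for Tcf7 (0.76 ± 0.24, adjusted p = 0.209), the gene of the naive and memory factor TCF-1, and Igfbp4 (0.86 ± 0.35, adjusted p = 0.381). Blocked by mouse, 4 of the 8 rose, Tcf7 (adjusted p = 0.0278) and Igfbp4 (0.0264) among them, and none fell, against 6.35% of all probes higher. The list median was 0.60 against 0.07 for all probes. With inhibitors Il2 (-0.28 ± 0.42) and Tcf7 (-0.12 ± 0.24) had the smallest p and did not pass.

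Around CD39 and CD73, all 14 listed genes of nucleotide and adenosine handling, inside or outside the cell, were measured. Between the controls Dpp4, the cell-surface peptidase CD26 that binds adenosine deaminase in humans, rose by 1.87 ± 0.25 (limma, adjusted p = 0.000756) in Dgcr8-deficient cells. Falls were found for Entpd3 (-1.92 ± 0.35) and Entpd5 (-1.0 ± 0.21), which are relatives of CD39, P2rx7 (-1.65 ± 0.40), the ATP-gated channel, and Slc29a1 (-1.0 ± 0.26), a nucleoside transporter, and 9 did not pass. Of all probes 8.03% rose and 9.16% fell. With miR-29b 0 of 14 passed, led by Entpd6 (0.57 ± 0.15, adjusted p = 0.118) and Dpp4 (-0.84 ± 0.25, adjusted p = 0.183). Blocked by mouse, 3 rose, Entpd6 (adjusted p = 0.0158) among them, and 1 fell, Dpp4 (0.0177), against 6.35% and 6.96% of all probes. With inhibitors none passed, led by Adk (0.41 ± 0.24) and Enpp1 (0.28 ± 0.18).

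The other Ikaros family genes, Ikzf1, Ikzf3 and Ikzf5, did not pass in any of the 4 comparisons, with Ikzf3 at 0.50 ± 0.26 between the controls (limma, adjusted p = 0.240) and 0.41 ± 0.26 with miR-29b (adjusted p = 0.660). The same held for Itgb7, the beta chain that pairs with CD103, at 0.44 ± 0.33 between the controls and -0.51 ± 0.33 with miR-29b, and for its ligand Cdh1 (E-cadherin), at 1.0 ± 0.81 and 0.35 ± 0.81.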

How the data were processed

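The 12 arrays were 1-colour Agilent arrays. Per the file headers, the authors' scanner files hold spot intensity, background-subtracted by Agilent Feature Extraction 10.5.1.1 and not scaled between arrays. A deposited table of log2 values, whose median was 6.95 to 6.96 per array, served as an alternative. Its normalization is not given in the sources used here, and its differences between arrays ran in the same direction (r 0.791 to 0.898). Log2 intensity minus the 75th percentile of each array was averaged over the spots of a probe, outlier spots left out, and probes well above background on at least 3 arrays were kept. Probes were named by RefSeq accession (24844 of 41174 with 1 symbol), and lists used the brightest kept probe per gene. Groups were compared with limma 3.58.1 (R 4.3.3), tested on simulated data, and adjusted by Benjamini-Hochberg. Figures used matplotlib 3.10.9.

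Both arrays of a mouse come from the same animal per the design text. Their residuals correlated at 0.638, 0.635 and 0.811 in Dgcr8-deficient mice and at 0.468, 0.764 and 0.490 in wild-type mice. Equal numbers across genotypes are not pairs. For the genotype comparison the mouse entered as a random block (correlation 0.758). Both arrays of a mouse shared 1 of 4 slides and 1 of 2 scan days. The number of arrays limits the precision.

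The members and lists were chosen with earlier results of these data known. The text names all member probes, list genes past the threshold in a comparison (otherwise the 2 with the smallest p), and the 3 genes most correlated with each member. The alternatives were other normalizations, the authors' values, filters, 1 probe per gene, fewer arrays, blocks, and, chosen after seeing the data, keeping outlier spots.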

Additional observations from a re-analysis of the deposited data

Results flagged for a closer look

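The effect of miR-29b in Dgcr8-deficient cells differed from that of the inhibitors in wild-type cells for Gpr83, by 2.08 ± 0.67 on the log2 scale. It was 1.87 with miR-29b, higher in 3 of 3 mice, and -0.21 with inhibitors, lower in 3 of 3 mice. In limma the difference had an adjusted p of 0.525, and of 0.0473 in the fit blocked by mouse. Both Entpd1 probes were lower with miR-29b in 3 of 3 mice and higher with inhibitors in 3 of 3. Opposite signs in every mouse were the rule by which these probes were flagged, and the share of all probes with that pattern was not counted. Their differences of -0.89 on A_52_P21835 (adjusted p = 0.507, blocked 0.0631) and -0.59 on A_51_P504337 (adjusted p = 1.0, blocked 0.181) were tested and did not pass.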

How the results depend on the processing

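The calls of lower Foxp3 and Gpr83 in Dgcr8-deficient controls held in all 23 alternatives run. The number of member probes past the threshold in that comparison was 2. It was 4 of 14 (2 higher, 2 lower) with slide or scan day as a block, where 36.7% and 34.3% of all probes passed. Without one array or mouse it was 2 to 3. With miR-29b it was 0 in the fit without a block, 4 with the mouse as a replicate block, 3 with slide, 2 with scan day, 1 with the authors' deposited values and 0 to 0 without one array or mouse. It was 0 with inhibitors in every alternative. For the difference between both effects it was 0, 1 with the mouse as a replicate block, and 0 to 0 without one array or mouse. The block changed no other call of a member. Of 1238 alternative values for the 56 member changes, none that passed turned its sign, and 99 that passed in neither fit differed in sign.

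Over all probes, 315 passed with miR-29b, 646 with the authors' values, 200 without a filter, 0 on the 6 arrays of the comparison alone (2237 at an unadjusted p under 0.05), 4287 with the mouse, 3406 with slide and 2544 with scan day as a block, and 0 to 247 without one array or mouse. Between the controls 5536 passed, 3686 on their own arrays, 11807 with slide, 11051 with scan day, and 2842 to 4980 without one array or mouse. The difference of effects had 13, with 23 for normexp, 30 for quantile normalization, 59 for the authors' values, 5 unfiltered, 38 with all arrays above background, 25 with 1 probe per gene, 719, 561 and 418 with mouse, slide and scan day, and 0 to 9 without one array or mouse. With inhibitors 0 passed throughout (36 to 1012 at an unadjusted p under 0.05). The scanner files hold no mean signal, so normexp used the median signal. The difference of effects uses all 12 arrays, so it was not run on fewer groups.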
